A study of Mus musculus with 12 samples.

Results

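Axon guidance genes encode the cues that steer growing axons and moving cells, and the receptors that read them. They were taken here as the genes whose array symbol belongs to the semaphorin (Sema), plexin (Plxn), neuropilin (Nrp1, Nrp2), ephrin (Efna, Efnb), Eph receptor (Epha, Ephb), Slit, Robo, netrin (Ntn, Ntng) or Unc5 families. Of the 65 such genes with a probe on the array, 30 were measured, meaning that at least 1 probe stood above background (detection p under 0.01, from the negative control beads) on 3 or more of the 12 arrays. They are 30 of the 8420 genes tested, of 16593 with a probe.

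The study profiled primary mouse embryonic fibroblasts (MEFs) of the C57BL6/J strain, taken from embryos at E15.5, on Illumina bead arrays. Cells lacking both cryptochromes were set against controls, and each genotype received the glucocorticoid dexamethasone or its solvent. The 4 groups, with 3 arrays labelled as biological replicates in each, are Cry1-/-Cry2-/- double knockout (dKO) MEFs with dexamethasone (Dex, 1 µM, 16 h), dKO MEFs with ethanol (EtOH, 16 h), Cry1+/-Cry2+/- control MEFs with Dex and control MEFs with EtOH. By the sample labels the controls carry 1 disrupted copy of each cryptochrome gene, while the series' design text names them WT. All groups are thus bulk cultures of 1 strain and stage, and the number of embryos behind each culture is not stated.

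Semaphorins bind plexins, and the secreted class also needs a neuropilin as co-receptor; the activated plexin acts on small GTPases and collapses the leading edge of the cell. Ephrins are bound to the cell surface and signal to Eph receptor tyrosine kinases on the neighbouring cell, with a reverse signal into their own. Slits act through Robo receptors, and netrins through DCC and Unc5 receptors, of which Unc5 gives the repulsive response. Outside the nervous system the same families guide neural crest, endothelial and mesenchymal cells, and fibroblasts use them in cell sorting, spreading and migration.

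Each array had 42.6% to 44.9% of its 25697 probes above background, and the number of arrays limits the precision of every value below. Cry1 has 1 probe, which was at background throughout, in control MEFs too. The Cry2 probe was above background on 6 of 6 dKO arrays and on 4 of 6 control arrays, with log2 signals of 6.36 to 7.08 in dKO and 5.90 to 6.79 in control MEFs. No source used here places these probes relative to the deleted exons, so they do not check the genotype, which is that of the labels. The arrays of control Dex replicate 3 and of dKO EtOH replicates 1 and 2 stood apart at the low end of the third principal component of all genes tested. Their scores were -31.13, -16.36 and -14.09. Replicate 3 of dKO EtOH scored 14.53, the highest of the 12, so within that group replicates 1 and 2 lay together and replicate 3 away from them. Which arrays of that group are unusual is not known. Each called difference of a guidance gene is also given without the 3 arrays at the low end. That leaves 1 array for dKO EtOH, whose spread the fit takes from the other groups. Of the 14 fibroblast markers looked up, 13 were measured, and the labelled cell type was borne by Col1a1, Col1a2 and Pdgfra on all 12 arrays. Macrophage genes were also high: Lyz2, Adgre1 and Cd14 were above background on all 12 arrays, while Ptprc was so on at most 2 and Itgam on none. Pecam1 and Cdh5, which define endothelium, were at background on all arrays, while Flt1 and Emcn of the same endothelial list were above it on all 12.

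Among the 65 genes the semaphorins had 10 of 18 measured, the plexins 2 of 8, the neuropilins 1 of 2, the ephrins 5 of 8, the Eph receptors 5 of 13, the Slits 2 of 3, the Robos 1 of 3, the netrins 2 of 6 and the Unc5 receptors 2 of 4. The 35 genes not measured were Sema3d, Sema3e, Sema3g, Sema4d, Sema4f, Sema4g, Sema6a, Sema6c, Plxna1, Plxna3, Plxna4, Plxnb1, Plxnb3, Plxnd1, Nrp2, Efna2, Efna3, Efnb3, Epha4, Epha5, Epha6, Epha8, Epha10, Ephb1, Ephb3, Ephb6, Slit1, Robo2, Robo4, Ntn1, Ntn4, Ntn5, Ntng2, Unc5a and Unc5d. Of these, 31 were above background on no array, Epha4 and Plxnb1 on 1, and Nrp2 and Sema4d on 2. Plxnc1 and Sema7a lay just inside the threshold, each on 3 arrays. Of the 30 measured genes 15 were above background on all 12 arrays and 15 on fewer. Sema7a was above background in control EtOH MEFs only, so its entry into the list already required a difference, and its values are given as a description. Epha1, Epha3, Epha7, Sema3c and Sema6d are affected in part. Outside the genotype or treatment where they are high, they were above background on fewer than 3 arrays. Their tests for that factor are thus not independent of the filter.

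Levels are given as background-corrected, quantile-normalized log2 signals of the most intense detected probe of each gene. Differences are log2 differences from limma with the 4 groups in 1 fit, and a gene is called at an adjusted p (Benjamini-Hochberg over 8420 genes) under 0.05. An offset of 16 was added to the signals, which shrinks the differences of dim genes, while the background correction itself widens them. Without that correction 26 of the 38 called differences were smaller by over 1.5 times, 3 of which were no longer called, and 25 were so in the authors' normalized values; the uncorrected value is given for each of the 26. A fold is stated as a bound (at least N-fold) where all arrays of the dimmer group were at background, and these bounds too rest on corrected signals. Without the correction the difference was smaller than the bound for every gene given one (Epha3, Epha7, Sema3c, Sema5a, Sema6b and Sema6d). The bounds are thus minimums for corrected signals only. Signals of different probes are not compared with each other. In such bulk cultures, fewer cells of a type and less RNA per cell cannot be told apart.

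Of the 30 genes, 22 were called in at least 1 comparison, Sema7a among them. That count cannot be judged alone, since the share over all genes tested was not computed. In dKO against control MEFs, 11 were called under Dex, where 19.7% of all genes tested were called: 6 were higher (9.89% of all genes) and 5 were lower (9.81%). In EtOH 10 were called, against 26.6% of all genes: 4 higher (10.7% of all genes) and 6 lower (15.8%). For Dex against EtOH, 8 were called in dKO MEFs (14.6% of all genes), 3 higher (8.62%) and 5 lower (5.99%). In control MEFs 9 were called (20.3% of all genes), 4 higher (8.85%) and 5 lower (11.4%). The interaction, which asks whether the Dex change differs between genotypes, was called for none of the 30 by limma, against 2.29% of all genes (1.28% higher, 1.01% lower in dKO). An unadjusted limma p under 0.05 was found for 5 of the 30, and the share of all genes with such a p was not computed.

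As shares of the 30 genes, the genotype calls were 36.7% under Dex and 33.3% in EtOH, and the Dex calls were 26.7% in dKO and 30% in control MEFs. The median difference of the 30 genes was -0.06 for dKO against control under Dex, beside 0.01 over all genes tested, and -0.12 in EtOH, beside -0.05. For Dex against EtOH it was 0.00 in dKO MEFs, beside 0.03, and -0.12 in control MEFs, beside -0.04. Calls went in both directions in each of these 4 comparisons. Both genotype counts include Sema7a. Without it they are 10 and 9 of 29 genes, or 34.5% and 31%. These shares still hold Epha3 and Sema3c, and that in EtOH also Epha1, which passed the filter mainly through the groups where they are high. Among the 15 genes above background on all arrays, 3 were higher and 1 lower in dKO MEFs under Dex, and 2 were higher and 2 lower in EtOH. With Dex, 2 of these 15 were higher and 3 lower in dKO MEFs, and 3 higher and 3 lower in control MEFs. The shares called among all genes above background on all arrays were not computed, so the counts of these 15 have no matched background. Counts and medians describe the genes that passed the detection filter, which can itself select for a difference. When arrays were only scaled to equal medians, the median difference over all genes became -0.25 for the genotypes in EtOH, with 518 genes called higher and 2589 lower, against 903 and 1333 in the quantile-normalized data. For Dex in dKO MEFs that scaling gave 0.14, with 871 higher and 343 lower against 726 and 504, and in control MEFs -0.15, with 482 higher and 1312 lower against 745 and 962. For the interaction it gave a median of 0.30 and 596 genes higher with 101 lower, against 108 and 85.

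**Figure D1:**
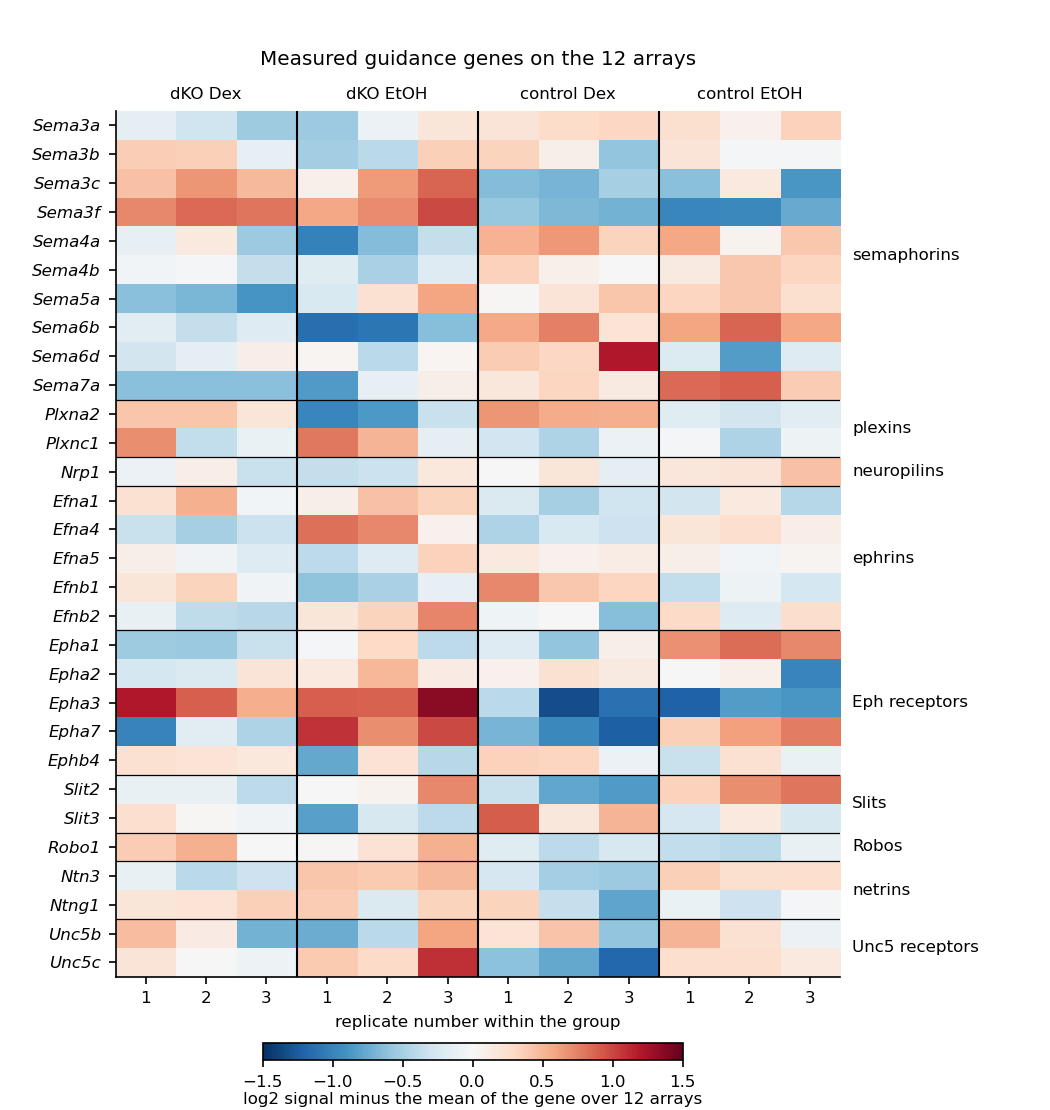
The 30 measured guidance genes (rows, by family) on the 12 arrays (columns, by group), coloured by the log2 signal minus that gene's mean over all arrays, on a scale of -1.5 to 1.5. Sema3f and Epha3 are above their means in all 6 dKO columns, Sema6b is below its mean there, and Epha7 and Ntn3 are low in the Dex columns of both genotypes.

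Secreted semaphorins of class 3, which bind neuropilin and plexin A receptors, separated the genotypes in both directions. Sema3f, a repellent best known as a neuropilin 2 ligand, was higher in dKO MEFs under both treatments. Under Dex, Sema3f read 10.73, 10.87 and 10.82 in dKO MEFs, against 9.45, 9.35 and 9.31 in control MEFs. In EtOH, Sema3f read 10.59, 10.72 and 11.001 in dKO MEFs, against 9.04, 9.05 and 9.26 in control MEFs. All 6 dKO arrays lay above all 6 control arrays. The differences were 1.44 ± 0.12 (SE, adjusted p = 6.64e-06) under Dex and 1.66 ± 0.12 (SE, adjusted p = 2.91e-06) in EtOH, or 2.71-fold and 3.16-fold. Its 2 detected probes differed by 1.31 and 1.44 under Dex and by 1.66 and 1.67 in EtOH. They were 1.42 and 1.90 without the 3 arrays. The partner co-receptor Nrp2 was not measured.

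Sema3c, a secreted semaphorin that guides cardiac neural crest to the outflow tract, was also higher in dKO MEFs. Under Dex, Sema3c read 6.53, 6.75 and 6.58 in dKO MEFs, against 5.44, 5.40 and 5.59 in control MEFs. In EtOH, Sema3c read 6.16, 6.73 and 6.97 in dKO MEFs, against 5.47, 6.24 and 5.22 in control MEFs. The groups did not overlap under Dex, but in EtOH the control array of replicate 2 lay above the dKO array of replicate 1. No control Dex array was above background, so the Dex difference of 1.14 ± 0.25 (SE, adjusted p = 0.00682) is stated as at least 1.36-fold higher in dKO. In EtOH 2 of 3 dKO arrays and 1 of 3 control arrays were above background, and the difference was 0.98 ± 0.25 (SE, adjusted p = 0.0131). That EtOH call was lost without any 1 of control EtOH replicates 1 or 3 (0.76 to 0.88, adjusted p = 0.053 to 0.0596). Sema3c differed by 0.37 and 0.33 under Dex and in EtOH without background correction, and by 1.20 and 1.33 without the 3 arrays.

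Sema3a, the prototype collapse factor for growth cones, moved the other way. Under Dex, Sema3a read 9.36, 9.21 and 8.98 in dKO MEFs, against 9.71, 9.79 and 9.82 in control MEFs. In EtOH, Sema3a read 8.97, 9.42 and 9.69 in dKO MEFs, against 9.76, 9.58 and 9.86 in control MEFs. Under Dex every dKO array was below every control array, and the difference was -0.58 ± 0.17 (SE, adjusted p = 0.0289). In EtOH the groups overlapped and the difference of -0.37 ± 0.17 (SE, adjusted p = 0.117) was not called. The Dex call was lost without any 1 of control Dex replicates 1, 2 or 3 or dKO Dex replicates 2 or 3 (-0.62 to -0.48, adjusted p = 0.0543 to 0.116), and at -0.58 (adjusted p = 0.062) with median scaling, while without the 3 arrays the value was -0.57 (adjusted p = 0.0127). Sema3b, a secreted repellent above background on 6 arrays, was called in no comparison, with group means of 6.02 to 6.41.

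Of the membrane-bound semaphorins Sema4a, Sema4b, Sema5a and Sema6b had called genotype differences, all lower in dKO MEFs. Sema6b, a transmembrane ligand of plexin A receptors, was lower under both treatments. Under Dex, Sema6b read 6.61, 6.42 and 6.58 in dKO MEFs, against 7.35, 7.53 and 6.98 in control MEFs. In EtOH, Sema6b read 5.64, 5.69 and 6.14 in dKO MEFs, against 7.36, 7.64 and 7.35 in control MEFs. No dKO array reached the lowest control array of its treatment. In EtOH all 3 dKO arrays were at background, which makes the gene at least 2.46-fold lower in dKO (log2 difference -1.63 ± 0.17 SE, adjusted p = 3.67e-05). Under Dex the difference was -0.75 ± 0.17 (SE, adjusted p = 0.00772), or 1.68-fold lower. Sema6b differed by -0.33 and -0.65 under Dex and in EtOH without background correction and by -0.92 and -1.34 without the 3 arrays, and was called each time. Dex against EtOH within dKO MEFs gave 0.71 ± 0.17 (SE, adjusted p = 0.0144), at least 1.3-fold higher with Dex, and this call was lost without any 1 of dKO EtOH replicates 1 or 2 or dKO Dex replicates 1 or 3 (0.62 to 0.69, adjusted p = 0.0506 to 0.0607). Without the 3 arrays it was 0.41 (adjusted p = 0.16), with no background correction 0.23 (adjusted p = 0.0831), and in the authors' normalized values 0.26 (adjusted p = 0.0622). Within control MEFs the Dex difference was -0.17 ± 0.17 (SE, adjusted p = 0.534). The interaction was 0.88 ± 0.23 (SE, adjusted p = 0.0719), the smallest p of the 30 genes for that term.

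Sema4a, a transmembrane semaphorin also known from dendritic cells and T cell priming, was lower in dKO MEFs. Under Dex, Sema4a read 6.90, 7.18 and 6.48 in dKO MEFs, against 7.55, 7.68 and 7.36 in control MEFs. In EtOH, Sema4a read 6.01, 6.38 and 6.67 in dKO MEFs, against 7.61, 7.08 and 7.43 in control MEFs. All 6 dKO arrays but 1 lay below all 6 control arrays, and the groups did not overlap within a treatment. The differences were -0.68 ± 0.21 (SE, adjusted p = 0.0408) under Dex and -1.02 ± 0.21 (SE, adjusted p = 0.00411) in EtOH. The Dex call was lost without any 1 of control EtOH replicate 3, control Dex replicates 1 or 2, dKO EtOH replicate 2 or dKO Dex replicates 1 or 3 (-0.70 to -0.49, adjusted p = 0.0532 to 0.161), and the EtOH one without the 3 arrays, at -0.72 (adjusted p = 0.103), where the Dex value was -0.77. Sema4a differed by -0.32 and -0.44 under Dex and in EtOH without background correction. The summed signal of the 7 measured macrophage markers moved with the genotype too, at 49300 to 50100 in dKO Dex, 57800 to 77500 in dKO EtOH, 68900 to 80400 in control Dex and 87900 to 98300 in control EtOH MEFs. Its part in the Sema4a difference was not tested.

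Sema4b, a transmembrane semaphorin with a PDZ-binding tail, was lower in dKO MEFs in EtOH. Under Dex, Sema4b read 10.02, 10.02 and 9.69 in dKO MEFs, against 10.40, 10.12 and 10.06 in control MEFs. In EtOH, Sema4b read 9.88, 9.56 and 9.86 in dKO MEFs, against 10.19, 10.46 and 10.38 in control MEFs. In EtOH the groups did not overlap and the difference was -0.57 ± 0.14 (SE, adjusted p = 0.0108), which without the 3 arrays was -0.48 (adjusted p = 0.103). Under Dex every dKO array also lay below every control array, but the difference of -0.29 ± 0.14 (SE, adjusted p = 0.175), with a 95% interval of -0.59 to 0.02, was not called.

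Sema5a, whose thrombospondin repeats bind proteoglycans, was low in 1 group only. Under Dex, Sema5a read 6.04, 5.99 and 5.79 in dKO MEFs, against 6.69, 6.87 and 7.09 in control MEFs. In EtOH, Sema5a read 6.44, 6.90 and 7.27 in dKO MEFs, against 6.99, 7.08 and 6.92 in control MEFs. The 3 dKO Dex arrays were all at background and below the other 9 arrays, all of which were above it. The gene was at least 1.48-fold lower in dKO than in control MEFs under Dex (-0.94 ± 0.18 SE, adjusted p = 0.00344) and at least 1.46-fold lower with Dex than with EtOH in dKO MEFs (-0.93 ± 0.18 SE, adjusted p = 0.00557). In control MEFs Dex gave -0.11 ± 0.18 (SE, adjusted p = 0.722), and the genotype difference in EtOH was -0.13 ± 0.18 (SE, adjusted p = 0.63). Both values held their call without the 3 arrays, at -0.85 and -1.34, and without background correction, at -0.34 and -0.34. The interaction of -0.82 ± 0.26 (SE, adjusted p = 0.105) was not called, so a different response of the genotypes was not shown.

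Sema7a, a lipid-anchored semaphorin that binds integrins and plexin C1, was above background on the 3 control EtOH arrays alone. Under Dex, Sema7a read 5.25, 5.25 and 5.25 in dKO MEFs, against 6.04, 6.20 and 6.01 in control MEFs. In EtOH, Sema7a read 5.03, 5.76 and 5.96 in dKO MEFs, against 6.72, 6.77 and 6.25 in control MEFs. Within each treatment every dKO array lay below every control array. Its calls in the 2 genotype comparisons stay in the counts of called genes and of alternatives, unless it is said to be left out. They are not read as results, since the detection filter admitted the gene through the group where it is high. The EtOH difference was -1.001, -0.62 without the 3 arrays and -0.34 without background correction. Under Dex both groups were at background on all arrays, with a difference of -0.83, -0.87 without the 3 arrays and -0.26 without background correction. Its receptor Plxnc1 was above background on 1 dKO Dex and 2 dKO EtOH arrays and on no control array, and was called in no comparison.

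Sema6d, a transmembrane ligand of plexin A1 in the chick heart, responded to Dex in control MEFs. In dKO MEFs, Sema6d read 6.08, 6.21 and 6.45 with Dex, against 6.38, 5.95 and 6.38 with EtOH. In control MEFs, Sema6d read 6.73, 6.66 and 7.55 with Dex, against 6.14, 5.51 and 6.16 with EtOH. The control Dex arrays were the 3 highest of the 12, and no control EtOH array was above background. The other Sema6d probes were at background on all 12 arrays. The gene was at least 1.71-fold higher with Dex in control MEFs (1.04 ± 0.25 SE, adjusted p = 0.011), and in dKO MEFs the difference was 0.01 ± 0.25 (SE, adjusted p = 0.984), with groups that overlapped. In control MEFs Sema6d differed by 0.40 without background correction and by 0.76 without the 3 arrays, called both times. Under Dex the genotype difference was -0.73 ± 0.25 (SE, adjusted p = 0.0573), not called, and the interaction of -1.03 ± 0.35 (SE, adjusted p = 0.127) was not called either.

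**Figure D2:**
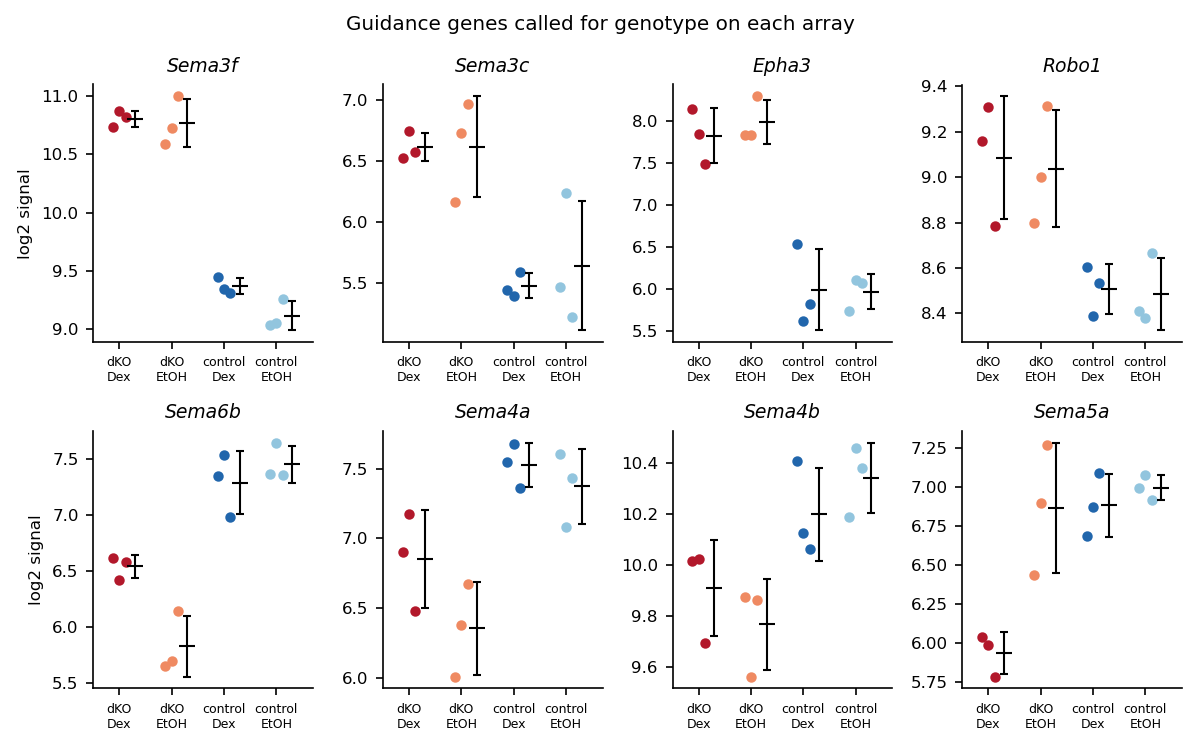
Log2 signals of 8 guidance genes on each array, with 1 panel per gene and 1 point per array; the horizontal dash is the group mean and the bar its SD (n = 3). Sema3f, Sema3c, Epha3 and Robo1 sit higher in the dKO groups, Sema6b, Sema4a and Sema4b sit lower, and Sema5a is low in dKO Dex alone (5.94 ± 0.13).

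Start-site sequences were set beside these values because the 2 regulators in the design have known DNA motifs. Cryptochromes repress the clock activator CLOCK:BMAL1, which binds the E-box CACGTG, and the glucocorticoid receptor binds a palindrome built of the inverted hexamers AGAACA and TGTTCT. RefSeq windows (GRCm38.p6, 250 bases before to 50 after an annotated start) were found for 28 of the 30 genes, 36 windows in all; Sema3b and Sema3f had no entry. The E-box was in 2 of the 36 windows, against 7.15% of the 32851 windows of all genes, and 1 or both of the receptor's hexamers were in 3, against 19%. The full receptor palindrome was in none of the 36 and in 3 of all windows. Median GC content was 64.3% in the 36 windows and 52.7% over all. The windows with a match are shown, with that of Epha3, whose genotype difference was seen on 3 probes and which has none; capitals mark the matches, found on either strand and not overlapping each other, positions count +1 as the annotated start, and each sequence reads 5′ to 3′ on the strand of its gene.
Sema6b chr17:56140294-56140593 (- strand): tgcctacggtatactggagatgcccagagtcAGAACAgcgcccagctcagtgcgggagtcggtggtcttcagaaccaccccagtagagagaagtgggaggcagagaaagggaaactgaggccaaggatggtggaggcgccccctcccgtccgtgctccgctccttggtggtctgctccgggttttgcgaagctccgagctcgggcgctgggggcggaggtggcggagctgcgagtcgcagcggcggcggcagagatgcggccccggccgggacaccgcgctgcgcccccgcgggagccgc
Sema6b chr17:56133803-56134102 (- strand): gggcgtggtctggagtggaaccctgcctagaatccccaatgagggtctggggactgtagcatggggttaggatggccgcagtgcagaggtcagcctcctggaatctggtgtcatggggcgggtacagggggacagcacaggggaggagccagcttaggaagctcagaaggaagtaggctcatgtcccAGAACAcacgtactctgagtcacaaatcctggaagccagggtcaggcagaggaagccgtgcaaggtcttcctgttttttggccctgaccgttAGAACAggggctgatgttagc
Sema6d chr2:124653331-124653630 (+ strand): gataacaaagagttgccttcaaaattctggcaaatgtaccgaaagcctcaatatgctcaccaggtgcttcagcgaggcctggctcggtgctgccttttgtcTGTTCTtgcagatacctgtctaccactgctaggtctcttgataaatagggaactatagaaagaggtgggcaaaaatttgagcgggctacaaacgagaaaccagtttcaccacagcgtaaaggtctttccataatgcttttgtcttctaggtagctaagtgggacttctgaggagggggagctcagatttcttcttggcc
Sema6d chr2:124089719-124090018 (+ strand): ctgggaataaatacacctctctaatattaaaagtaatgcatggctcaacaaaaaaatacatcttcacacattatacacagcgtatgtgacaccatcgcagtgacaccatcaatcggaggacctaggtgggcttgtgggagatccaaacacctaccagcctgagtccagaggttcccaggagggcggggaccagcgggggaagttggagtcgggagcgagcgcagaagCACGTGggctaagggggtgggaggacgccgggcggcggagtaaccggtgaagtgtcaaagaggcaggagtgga
Sema4b chr7:80198338-80198637 (+ strand): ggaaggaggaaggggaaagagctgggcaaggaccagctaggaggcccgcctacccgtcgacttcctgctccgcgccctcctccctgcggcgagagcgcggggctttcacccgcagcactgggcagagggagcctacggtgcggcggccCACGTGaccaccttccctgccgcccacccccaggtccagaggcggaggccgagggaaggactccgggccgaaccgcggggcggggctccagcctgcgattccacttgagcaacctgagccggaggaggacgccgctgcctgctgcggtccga
Epha3 chr16:63864126-63864425 (- strand): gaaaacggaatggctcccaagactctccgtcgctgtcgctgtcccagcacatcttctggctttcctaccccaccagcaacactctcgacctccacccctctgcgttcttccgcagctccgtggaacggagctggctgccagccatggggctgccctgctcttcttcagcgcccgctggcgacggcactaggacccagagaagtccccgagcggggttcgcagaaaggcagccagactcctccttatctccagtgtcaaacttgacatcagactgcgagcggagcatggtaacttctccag

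In Sema6b, a receptor hexamer lies at -219 of 1 start and at -63 and +30 of the other. In Sema6d a hexamer is at -149 of 1 start and the E-box at -23 of the other, and in Sema4b the E-box is at -102. These matches are descriptions of the letters in short windows and were not tested for binding. No source used here says which start each probe reads.

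Plxna2, a receptor for class 3 and class 6 semaphorins, rose with Dex in both genotypes. In dKO MEFs, Plxna2 read 9.59, 9.60 and 9.37 with Dex, against 8.21, 8.32 and 8.85 with EtOH. In control MEFs, Plxna2 read 9.84, 9.73 and 9.73 with Dex, against 9.001, 8.90 and 9.02 with EtOH. Every Dex array lay above every EtOH array of either genotype. The change was 1.06 ± 0.15 (SE, adjusted p = 0.000574) in dKO MEFs and 0.79 ± 0.15 (SE, adjusted p = 0.00275) in control MEFs, or 2.08-fold and 1.73-fold, and without the 3 arrays it was 0.67 (adjusted p = 0.014) and 0.82 (adjusted p = 0.000592). In EtOH the gene was lower in dKO MEFs (-0.52 ± 0.15 SE, adjusted p = 0.0249), a call lost without any 1 of control EtOH replicates 1 or 3 or dKO EtOH replicates 1 or 2 (-0.50 to -0.39, adjusted p = 0.0707 to 0.102) and at -0.13 (adjusted p = 0.579) without the 3 arrays. Nrp1, the co-receptor that plexins share with vascular endothelial growth factor, was bright in all groups (means of 11.68 to 12.12) and called in none. The largest of its differences, -0.44 ± 0.16 (SE, adjusted p = 0.0622) for dKO against control in EtOH, had a 95% interval of -0.79 to -0.09.

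Among the ephrins, Efnb1, a transmembrane ligand that sorts cells at tissue boundaries and carries a craniofacial phenotype, rose with Dex in both genotypes. In dKO MEFs, Efnb1 read 10.72, 10.87 and 10.48 with Dex, against 9.93, 10.06 and 10.41 with EtOH. In control MEFs, Efnb1 read 11.26, 10.95 and 10.87 with Dex, against 10.16, 10.46 and 10.28 with EtOH. Within each genotype the Dex arrays lay above the EtOH arrays. The change was 0.56 ± 0.16 (SE, adjusted p = 0.0341) in dKO MEFs and 0.72 ± 0.16 (SE, adjusted p = 0.00681) in control MEFs, or 1.47-fold and 1.65-fold. The dKO call was lost without any 1 of control EtOH replicate 3, dKO EtOH replicates 1 or 2 or dKO Dex replicates 1 or 2 (0.46 to 0.56, adjusted p = 0.0503 to 0.129) and at 0.28 (adjusted p = 0.431) without the 3 arrays, and the control call at 0.59 (adjusted p = 0.0504) with median scaling. In control MEFs the value without the 3 arrays was 0.80 (adjusted p = 0.00458).

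Efna4 and Efnb2 were lower with Dex in dKO MEFs. In dKO MEFs, Efna4 read 7.78, 7.61 and 7.79 with Dex, against 8.93, 8.83 and 8.18 with EtOH. In control MEFs, Efna4 read 7.65, 7.88 and 7.81 with Dex, against 8.30, 8.36 and 8.22 with EtOH. For Efna4, a lipid-anchored ligand of EphA receptors, the Dex arrays lay below the EtOH arrays in both genotypes, but the test was passed in dKO MEFs (-0.92 ± 0.17 SE, adjusted p = 0.00361) and narrowly missed in control MEFs (-0.51 ± 0.17 SE, adjusted p = 0.0518). Without the 3 arrays the dKO value was -0.46 (adjusted p = 0.0792), and without background correction -0.61 (adjusted p = 0.00226).

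Efnb2 is a transmembrane ligand known for arterial identity and as the partner of Ephb4. In dKO MEFs, Efnb2 read 7.20, 6.93 and 6.90 with Dex, against 7.50, 7.66 and 8.05 with EtOH. In control MEFs, Efnb2 read 7.25, 7.32 and 6.67 with Dex, against 7.61, 7.12 and 7.58 with EtOH. The Dex arrays lay below the EtOH arrays in dKO MEFs, and the groups overlapped in control MEFs. Its Dex change was -0.72 ± 0.20 (SE, adjusted p = 0.0341) in dKO MEFs and -0.36 ± 0.20 (SE, adjusted p = 0.255) in control MEFs, and the dKO call was lost without any 1 of dKO EtOH replicates 2 or 3 or dKO Dex replicates 2 or 3 (-0.77 to -0.57, adjusted p = 0.0661 to 0.111). In dKO MEFs Efnb2 changed by -0.38 without background correction and by -1.06 without the 3 arrays. Neither difference of the responses was called, at -0.41 ± 0.24 (SE, adjusted p = 0.326) for Efna4 and -0.37 ± 0.29 (SE, adjusted p = 0.469) for Efnb2.

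Efna1, a lipid-anchored ligand of Epha2, was higher in dKO MEFs under Dex. Under Dex, Efna1 read 6.66, 6.97 and 6.39 in dKO MEFs, against 6.21, 5.93 and 6.13 in control MEFs. In EtOH, Efna1 read 6.51, 6.87 and 6.76 in dKO MEFs, against 6.16, 6.58 and 5.999 in control MEFs. Under Dex the groups did not overlap and the difference was 0.58 ± 0.18 (SE, adjusted p = 0.0395), with 3 of 3 dKO and 2 of 3 control arrays above background. In EtOH they overlapped, at 0.47 ± 0.18 (SE, adjusted p = 0.0723). The Dex call was lost without any 1 of control EtOH replicate 1, control Dex replicates 1, 2 or 3 or dKO Dex replicates 1 or 2 (0.44 to 0.64, adjusted p = 0.0544 to 0.142), at 0.54 (adjusted p = 0.0628) with median scaling, at 0.21 (adjusted p = 0.0978) without background correction and at 0.61 (adjusted p = 0.0544) without the 3 arrays. Efna5, a repellent lipid-anchored ephrin, was bright in all groups (means of 10.97 to 11.15) and called in none, with a 95% interval of -0.28 to 0.42 for Dex in control MEFs.

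Of the Eph receptors, Epha3, which binds A-type ephrins and is known from mesenchymal cells of the heart valves, was higher in dKO MEFs. Under Dex, Epha3 read 8.15, 7.85 and 7.49 in dKO MEFs, against 6.54, 5.62 and 5.83 in control MEFs. In EtOH, Epha3 read 7.84, 7.84 and 8.30 in dKO MEFs, against 5.74, 6.11 and 6.07 in control MEFs. All 6 dKO arrays were above background and above all 6 control arrays, of which 1 was above background. In EtOH, with no control array above background, Epha3 was at least 3.46-fold higher in dKO MEFs (2.02 ± 0.24 SE, adjusted p = 0.000122). Under Dex, where 1 of 3 control arrays was above background, it was 3.56-fold higher (1.83 ± 0.24 SE, adjusted p = 0.000269). The gene has 3 detected probes, and all were higher in dKO MEFs, by 0.78 to 1.83 under Dex and by 0.87 to 2.02 in EtOH. Dex was called for it in neither genotype, at -0.16 ± 0.24 (SE, adjusted p = 0.688) in dKO and 0.02 ± 0.24 (SE, adjusted p = 0.961) in control MEFs. Without the 3 arrays the genotype values under Dex and in EtOH were 1.77 (adjusted p = 0.00157) and 2.36 (adjusted p = 0.00177). Without background correction they were 0.81 and 0.92, both called, below those of Sema3f at 1.26 and 1.43.

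Epha7, a receptor used in cortical map formation, fell with Dex in both genotypes. In dKO MEFs, Epha7 read 5.56, 6.39 and 6.10 with Dex, against 7.65, 7.26 and 7.56 with EtOH. In control MEFs, Epha7 read 5.87, 5.60 and 5.34 with Dex, against 6.92, 7.18 and 7.33 with EtOH. All EtOH arrays were above background and lay above all Dex arrays, of which 1 dKO array was above background. The other Epha7 probes were at background on every array. In control MEFs the gene was at least 1.95-fold lower with Dex (-1.54 ± 0.21 SE, adjusted p = 0.000304), and in dKO MEFs it was 2.78-fold lower (-1.47 ± 0.21 SE, adjusted p = 0.000612). The interaction of 0.07 ± 0.29 (SE, adjusted p = 0.913) had a 95% interval of -0.58 to 0.71, so responses that differ by less than these bounds could not be separated. Both calls held under every alternative run, but the sizes did not: without background correction the values were -0.61 and -0.56 in dKO and control MEFs, smaller in control MEFs than the bound above. They were -1.56 and -1.42 without the 3 arrays.

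Epha1, the first Eph receptor described, was highest in control EtOH MEFs. In dKO MEFs, Epha1 read 5.81, 5.79 and 6.01 with Dex, against 6.33, 6.64 and 5.95 with EtOH. In control MEFs, Epha1 read 6.14, 5.75 and 6.43 with Dex, against 7.03, 7.18 and 7.06 with EtOH. The 3 control EtOH arrays were the highest of the 12, and of the other 9 arrays 3 were above background. Of the other Epha1 probes, none was above background on more than 1 array. The gene was 1.98-fold lower with Dex in control MEFs (-0.98 ± 0.19 SE, adjusted p = 0.00321) and 1.73-fold lower in dKO than in control MEFs in EtOH (-0.79 ± 0.19 SE, adjusted p = 0.0103). Its 2 called differences were -0.38 and -0.31 without background correction and -1.16 and -1.16 without the 3 arrays. Dex within dKO MEFs gave -0.43 ± 0.19 (SE, adjusted p = 0.146), not called. The interaction of 0.55 ± 0.27 (SE, adjusted p = 0.244) was not called either. Epha2, an Eph receptor of epithelia and endothelium, and Ephb4, the receptor known from veins, were above background on 9 and 8 arrays and called in none. The group means were 6.11 to 6.67 for Epha2 and 5.92 to 6.44 for Ephb4.

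Slits and their receptor were split between the 2 factors. Slit2, a secreted repellent, was lower with Dex in control MEFs. In dKO MEFs, Slit2 read 10.21, 10.22 and 9.94 with Dex, against 10.32, 10.38 and 11.05 with EtOH. In control MEFs, Slit2 read 9.99, 9.55 and 9.48 with Dex, against 10.67, 11.03 and 11.13 with EtOH. In control MEFs the groups did not overlap and the change was -1.27 ± 0.21 (SE, adjusted p = 0.00111), or 2.41-fold lower. In dKO MEFs the Dex arrays also lay below the EtOH arrays, but the change of -0.46 ± 0.21 (SE, adjusted p = 0.161) was not called, and the interaction was 0.81 ± 0.29 (SE, adjusted p = 0.142). Without the 3 arrays the control value was -1.18 (adjusted p = 0.0014).

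Slit3, known from diaphragm and vascular development, was higher with Dex. In dKO MEFs, Slit3 read 7.397, 7.17 and 7.10 with Dex, against 6.33, 6.90 and 6.76 with EtOH. In control MEFs, Slit3 read 8.06, 7.32 and 7.66 with Dex, against 6.89, 7.29 and 6.91 with EtOH. In each genotype every Dex array lay above every EtOH array. The change was 0.65 ± 0.20 (SE, adjusted p = 0.0407) in control MEFs, called, and 0.56 ± 0.20 (SE, adjusted p = 0.0878) in dKO MEFs, not called. The interaction of -0.09 ± 0.28 (SE, adjusted p = 0.875) was not called either. The control call was lost without any 1 of control EtOH replicates 1 or 3, control Dex replicates 1 or 3 or dKO Dex replicates 1, 2 or 3 (0.45 to 0.66, adjusted p = 0.0507 to 0.136), at 0.55 (adjusted p = 0.0793) with median scaling and at 0.67 (adjusted p = 0.0532) without the 3 arrays, and was 0.34 (adjusted p = 0.0359) without background correction.

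Robo1, the Slit receptor measured here, differed by genotype. Under Dex, Robo1 read 9.16, 9.31 and 8.79 in dKO MEFs, against 8.60, 8.39 and 8.54 in control MEFs. In EtOH, Robo1 read 8.80, 9.002 and 9.31 in dKO MEFs, against 8.41, 8.38 and 8.67 in control MEFs. Within each treatment every dKO array lay above every control array. The difference was 0.58 ± 0.16 (SE, adjusted p = 0.0261) under Dex and 0.55 ± 0.16 (SE, adjusted p = 0.0266) in EtOH, or 1.49-fold and 1.47-fold. Dex changes of Robo1 were 0.05 ± 0.16 (SE, adjusted p = 0.868) in dKO and 0.02 ± 0.16 (SE, adjusted p = 0.941) in control MEFs. The Dex-treated call was lost without any 1 of control Dex replicate 2 or dKO Dex replicates 1 or 2 (0.47 to 0.54, adjusted p = 0.0846 to 0.1), and the EtOH call without any 1 of control EtOH replicates 1 or 2 or dKO EtOH replicates 2 or 3 (0.41 to 0.57, adjusted p = 0.0617 to 0.0874). With median scaling the values were 0.57 (adjusted p = 0.0537) and 0.35 (adjusted p = 0.151), and without the 3 arrays 0.60 (adjusted p = 0.0256) and 0.84 (adjusted p = 0.0238).

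Of the netrin system, Ntn3, a secreted netrin, fell with Dex in both genotypes. In dKO MEFs, Ntn3 read 7.31, 7.01 and 7.10 with Dex, against 7.83, 7.81 and 7.91 with EtOH. In control MEFs, Ntn3 read 7.17, 6.91 and 6.88 with Dex, against 7.77, 7.66 and 7.67 with EtOH. The 6 Dex arrays all lay below the 6 EtOH arrays. The change was -0.71 ± 0.11 (SE, adjusted p = 0.00121) in dKO MEFs and -0.72 ± 0.11 (SE, adjusted p = 0.00073) in control MEFs, or 1.63-fold and 1.64-fold lower, and the difference of the responses was 0.01 ± 0.15 (SE, adjusted p = 0.982). The changes in dKO and control MEFs were -0.78 and -0.68 without the 3 arrays and -0.38 and -0.37 without background correction. Both calls held under every alternative run. Ntng1, a lipid-anchored netrin of a separate branch, was above background on 4 arrays and called in none, with group means of 5.79 to 6.30.

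Unc5c, a repulsive netrin receptor, was lower with Dex in control MEFs. In dKO MEFs, Unc5c read 7.57, 7.37 and 7.30 with Dex, against 7.76, 7.67 and 8.47 with EtOH. In control MEFs, Unc5c read 6.76, 6.61 and 6.20 with Dex, against 7.63, 7.63 and 7.53 with EtOH. The 3 control Dex arrays were the lowest of the 12, and within each genotype the Dex arrays lay below the EtOH arrays. The change was -1.07 ± 0.20 (SE, adjusted p = 0.00273) in control MEFs, or 2.1-fold lower, and -0.55 ± 0.20 (SE, adjusted p = 0.0891) in dKO MEFs, not called. The interaction of 0.52 ± 0.28 (SE, adjusted p = 0.296) was not called either. Under Dex Unc5c was 1.86-fold higher in dKO than in control MEFs (0.89 ± 0.20 SE, adjusted p = 0.00856), and in EtOH the difference was 0.37 ± 0.20 (SE, adjusted p = 0.184). The 2 called differences, Dex in control MEFs and genotype under Dex, were -0.49 and 0.40 without background correction and -0.93 and 0.74 without the 3 arrays. Unc5b, its relative known from endothelium, was called in none, with group means of 10.06 to 10.46.

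**Figure D3:**
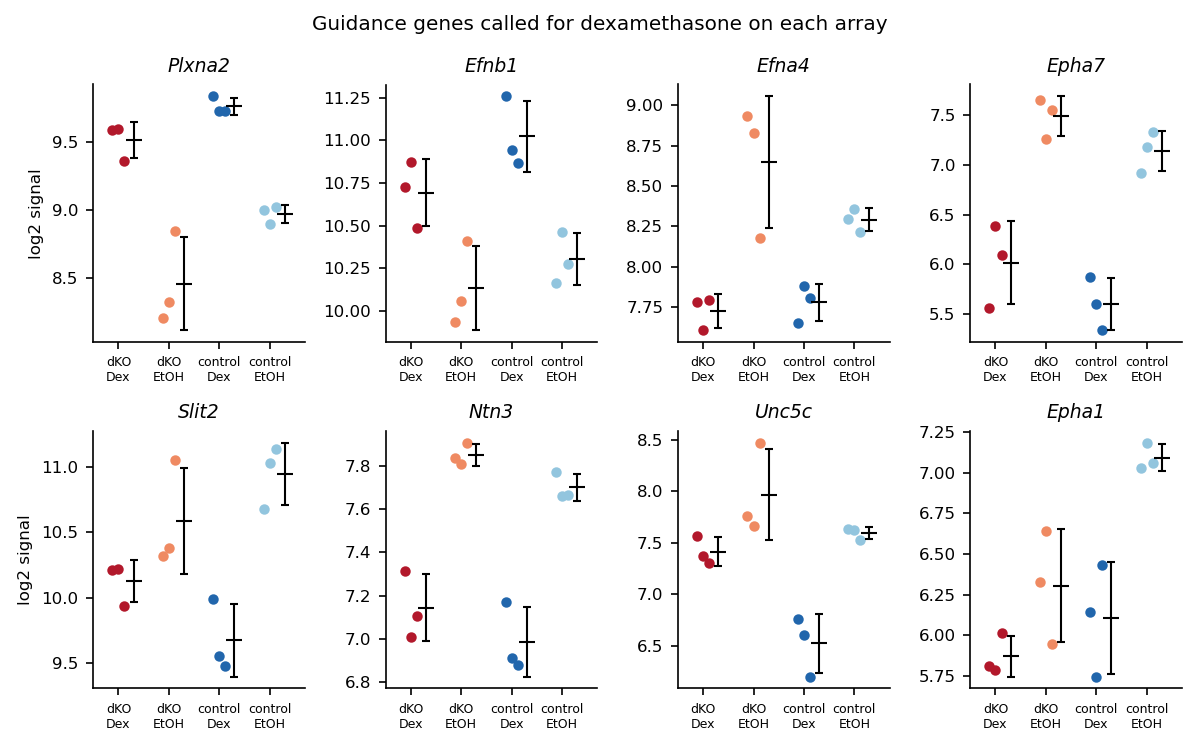
Log2 signals of 8 guidance genes called for Dex, on each array, with 1 panel per gene and 1 point per array; the dash is the group mean and the bar its SD (n = 3). Plxna2 and Efnb1 sit higher with Dex in both genotypes, Epha7 and Ntn3 sit lower in both, and Unc5c is lowest in control Dex MEFs (6.52 ± 0.29).

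Set side by side, Dex moved 4 genes past the threshold in both genotypes, Efnb1 and Plxna2 upward and Epha7 and Ntn3 downward. They are 50% of the 8 genes called in dKO and 44.4% of the 9 in control MEFs. Over all genes tested, 657 genes were called in the same direction in both, 53.4% of those called in dKO and 38.5% of those called in control MEFs. The genotype comparisons shared 6 genes when Sema7a is left out: Epha3, Robo1, Sema3c and Sema3f were higher and Sema4a and Sema6b lower in dKO MEFs under both treatments. They are 60% of the 10 called under Dex and 66.7% of the 9 called in EtOH, and over all genes 914 were shared, 55.1% and 40.9%. Whether the guidance genes differ from all genes in these shares was not tested. Of the shared genes, Epha3, Epha7 and Sema3c passed the detection filter mainly through the groups where they are high. Of the semaphorins without Sema7a, the genotype calls fell on 6 of 9 under Dex (19.7% of all genes) and 5 of 9 in EtOH (26.6%). The Dex calls fell on 2 of 9 in dKO (14.6%) and 1 of 9 in control MEFs (20.3%). Both genotype counts still hold Sema3c, and the control Dex count is Sema6d, which the detection filter also affects. This family was singled out with the calls known, the other families were not set beside these shares, and the differences were not tested.

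**Figure D4:**
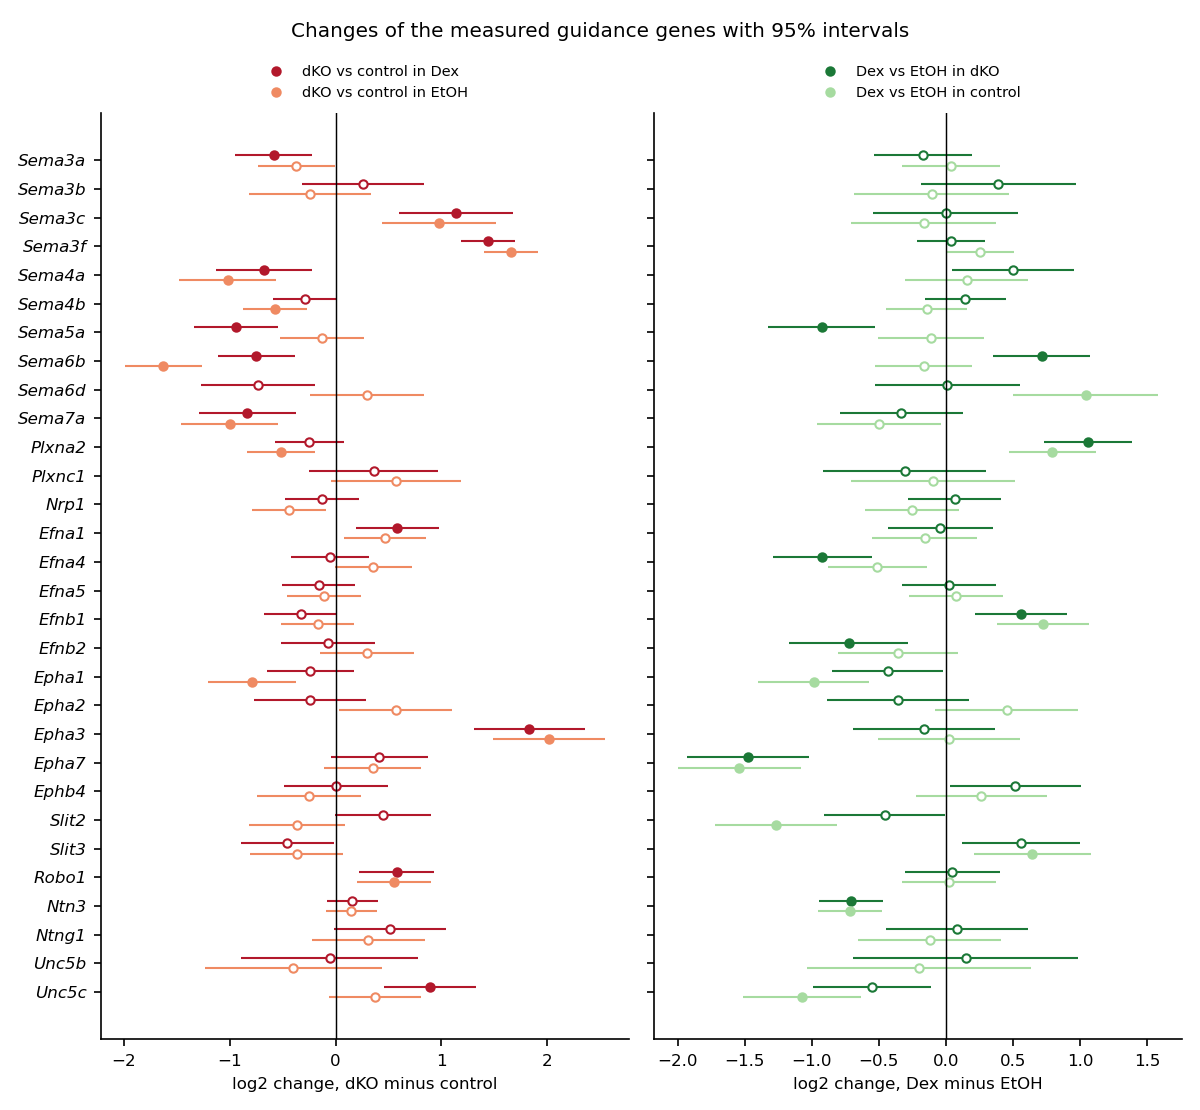
Log2 differences of the 30 guidance genes with 95% intervals, dKO minus control on the left (under Dex in the dark shade, in EtOH in the light shade) and Dex minus EtOH on the right (in dKO dark, in control light); filled points passed the limma test. The points lie on both sides of 0 in each panel, at 2.02 for Epha3 in EtOH on the left and at -1.54 for Epha7 in control MEFs on the right, both from background-corrected signals.

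Of the interaction terms, the next smallest p after Sema6b and Sema5a belonged to Sema6d, Slit2 and Epha2, the last at -0.81 ± 0.34 (SE, adjusted p = 0.194). Among the alternatives, median scaling called 1 of the 30 (Sema6b, 0.93, adjusted p = 0.0385) and 8.28% of all genes. Leaving out dKO EtOH replicate 3 called 1202 of 8377 genes (14.3%), 4 of them guidance genes: Sema6b (1.04, adjusted p = 0.0159), Efna4 (-0.65, adjusted p = 0.021), Slit2 (1.04, adjusted p = 0.0224) and Unc5c (0.77, adjusted p = 0.035). Without the 3 arrays, where 1 array stands for dKO EtOH, 0.812% of all genes were called, and of the 30 only Sema5a (-1.12, adjusted p = 0.0322). Which genes are called for a different Dex response thus varied with 1 to 3 arrays.

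The summed signals of cell type markers differed between the groups. The 13 fibroblast markers summed to 120000 to 122000 in dKO Dex and 116000 to 133000 in dKO EtOH MEFs, against 78500 to 88000 in control Dex and 83200 to 87600 in control EtOH MEFs. The 2 measured mesothelial markers, Wt1 and Upk3b of 4 listed, summed to 139 to 175 in dKO Dex and 89.8 to 104 in dKO EtOH MEFs, against 1150 to 1390 and 778 to 834 in control Dex and control EtOH MEFs. Of 9 endothelial markers Flt1 and Emcn were measured, with sums of 508 to 592 in dKO Dex, 178 to 274 in dKO EtOH, 1200 to 1530 in control Dex and 573 to 678 in control EtOH MEFs. Of 14 genes in the neuron and glia list 4 were measured (Mbp, Ncam1, Stmn2, Map2), summing to 2930 to 3040 in dKO Dex, 1330 to 1600 in dKO EtOH, 2050 to 2260 in control Dex and 1370 to 1470 in control EtOH MEFs, while Tubb3, Gfap and S100b were at background on all arrays. Smooth muscle markers (4 of 5) summed to 72100 to 77100 over the 4 groups. These sums, and the macrophage sums given above, add signals of different probes and are weighted to the brightest. Acta2 had a mean log2 signal of 16.04 and Lyz2 of 15.06, so changes of dimmer markers can be hidden. Whether the mixture of cells differed between the groups, and its part in the guidance genes above, was not tested.

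Guidance receptors and ligands outside these families were counted from a list of 31 genes, of which 15 were measured. In dKO against control MEFs, 3 were higher and 6 lower under Dex, and 4 higher and 5 lower in EtOH, with median differences of -0.22 and -0.44; over all genes 19.7% and 26.6% were called. With Dex, 3 were higher and 3 lower in dKO MEFs and 3 higher and 2 lower in control MEFs, with medians of -0.02 and -0.07, against 14.6% and 20.3% of all genes called. Flt1, a receptor of vascular endothelial growth factor that is also in the endothelial list, was lower in dKO MEFs under Dex (-1.83 ± 0.24 SE, adjusted p = 0.000266) and in EtOH (-1.82 ± 0.24 SE, adjusted p = 0.000225). With Dex it was higher in dKO (1.01 ± 0.24 SE, adjusted p = 0.0159) and in control MEFs (1.02 ± 0.24 SE, adjusted p = 0.0107). Ret, the receptor of glial-derived neurotrophic factor ligands, was higher with Dex in dKO MEFs (1.54 ± 0.28 SE, adjusted p = 0.00336) and in control MEFs, where no EtOH array was above background (adjusted p = 0.00749). Under Dex it was higher in dKO than in control MEFs, by 1.76 ± 0.28 (SE, adjusted p = 0.000959). The same held in EtOH, with no control array above background (adjusted p = 0.0025).

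Cxcl12, the chemokine that attracts cells through Cxcr4, was lower with Dex in dKO MEFs (-2.07 ± 0.41 SE, adjusted p = 0.00597). Under Dex it was also lower in dKO than in control MEFs (-2.06 ± 0.41 SE, adjusted p = 0.00428). Cxcr4 was lower in dKO MEFs under Dex (-1.07 ± 0.21 SE, adjusted p = 0.00375) and in EtOH (-1.5 ± 0.21 SE, adjusted p = 0.000352, with 1 of 3 dKO arrays above background), and the macrophage marker sums given above were lower there too. Plxdc1, which resembles plexins in 1 domain, was lower in dKO MEFs under Dex (-0.68 ± 0.12 SE, adjusted p = 0.00228) and in EtOH (-1.10 ± 0.12 SE, adjusted p = 7.6e-05), and with Dex in control MEFs (-0.52 ± 0.12 SE, adjusted p = 0.0104). The heparan sulfate carrier Sdc2 was higher in dKO MEFs under Dex (0.56 ± 0.11 SE, adjusted p = 0.00501) and in EtOH (0.95 ± 0.11 SE, adjusted p = 0.00013), and lower with Dex in dKO MEFs (-0.47 ± 0.11 SE, adjusted p = 0.018). Gpc1, another such carrier, was lower with Dex in dKO (-0.69 ± 0.11 SE, adjusted p = 0.00143) and in control MEFs (-0.36 ± 0.11 SE, adjusted p = 0.0364). Gpc1 was higher in dKO MEFs under Dex (0.446 ± 0.11 SE, adjusted p = 0.0139) and in EtOH (0.775 ± 0.11 SE, adjusted p = 0.000389). The integrin Itga1 was higher with Dex in control MEFs (0.80 ± 0.18 SE, adjusted p = 0.00859) and in dKO MEFs in EtOH (0.77 ± 0.18 SE, adjusted p = 0.00952).

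The intracellular side was read from 76 transducers, of which 44 were measured. In dKO against control MEFs, 4 were higher and 6 lower under Dex, and 6 higher and 7 lower in EtOH, against 19.7% and 26.6% of all genes called. With Dex, 6 were higher and 4 lower in dKO MEFs and 7 higher and 5 lower in control MEFs, against 14.6% and 20.3% of all genes. The medians lay between -0.09 and 0.07, and neither list had an interaction call. Nfatc4, a calcineurin-regulated factor downstream of netrin signals, was higher in dKO MEFs under Dex (1.26 ± 0.08 SE, adjusted p = 1.72e-06) and in EtOH (0.80 ± 0.08 SE, adjusted p = 4.47e-05). It was lower with Dex in dKO (-0.32 ± 0.08 SE, adjusted p = 0.0258) and in control MEFs (-0.78 ± 0.08 SE, adjusted p = 5.51e-05). Limk2, the kinase that inactivates cofilin, was lower in dKO MEFs under Dex (-0.90 ± 0.11 SE, adjusted p = 0.000163) and in EtOH (-0.64 ± 0.11 SE, adjusted p = 0.00148). With Dex it was higher in dKO (0.63 ± 0.11 SE, adjusted p = 0.00286) and in control MEFs (0.89 ± 0.11 SE, adjusted p = 0.000165).

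Mras and Rras2, small GTPases related to R-Ras, a substrate of the plexin GAP domain, rose with Dex. Mras was higher in dKO (0.93 ± 0.11 SE, adjusted p = 0.000174) and in control MEFs (0.77 ± 0.11 SE, adjusted p = 0.000409), and Rras2 in dKO (0.69 ± 0.14 SE, adjusted p = 0.00597) and in control MEFs (1.07 ± 0.14 SE, adjusted p = 0.000206). Rac2, a GTPase of blood cells, was lower with Dex in dKO (-0.94 ± 0.16 SE, adjusted p = 0.0021) and in control MEFs (-1.02 ± 0.16 SE, adjusted p = 0.000746). It was lower in dKO than in control MEFs under Dex (-0.825 ± 0.16 SE, adjusted p = 0.0032) and in EtOH (-0.91 ± 0.16 SE, adjusted p = 0.00143). The macrophage marker sums were lower in each case too, and their part was not tested. Dpysl4, a collapsin response mediator downstream of semaphorins, was higher in dKO MEFs under Dex (1.01 ± 0.13 SE, adjusted p = 0.000196) and in EtOH (0.79 ± 0.13 SE, adjusted p = 0.000896). With Dex it was lower in control MEFs (-0.6 ± 0.13 SE, adjusted p = 0.00567). Nck2, an adaptor that binds phosphorylated B-type ephrins, was lower in dKO than in control MEFs under Dex (-0.66 ± 0.10 SE, adjusted p = 0.000649). It was also lower with Dex in dKO MEFs (-0.46 ± 0.10 SE, adjusted p = 0.00953).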

How the data were processed

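Total RNA of 12 MEF cultures was measured on Illumina bead arrays. The authors deposited a non-normalized table of mean bead intensity with a detection p-value per probe, read with GenomeStudio per the submitters' processing notes (no version given there), and a value table of intensity normalized between arrays, by steps not given in the sources used here; the 2 tables ranked the probes of each array alike, and the second served as an alternative. The deposited detection p-value set the background (under 0.01 on at least 3 arrays); its columns name no sample, and each was assigned to the array whose signals it ranks.

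From the non-normalized intensity, limma 3.58.1 in R 4.3.3 corrected the background (nec, offset 16), quantile normalized and took log2, kept for each gene its detected probe of highest mean, and fitted 4 group means with eBayes, calling genes at a Benjamini-Hochberg adjusted p under 0.05. Gene symbols came from the platform annotation (23978 probes with 1 symbol, 1719 without), updated through Entrez identifiers where possible. Groups came from the sample descriptions. A group at background on all its arrays was set to the lowest signal above background (log2 6.09 to 6.35) to give bounds. The code was tested on simulated data. Named are all members called and the uncalled members by their group means. Of each further list, up to 4 called genes with the smallest p per comparison are named, with their other called differences. The members and lists were chosen with earlier results of these data known. Alternatives were other corrections, scalings, filters and fits, and fits without single arrays.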

Additional observations from a re-analysis of the deposited data

How the results depend on the processing

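Counts of guidance genes called ran from 7 to 11 for dKO against control under Dex and from 6 to 15 in EtOH when single arrays were left out. They ran from 6 to 9 for Dex in dKO MEFs, from 8 to 11 for Dex in control MEFs, and from 0 to 4 for the interaction. The shares of all genes called moved too. They ran from 13.7% to 23.1% and from 17.2% to 37.3% for genotype under Dex and in EtOH. For Dex they ran from 8.59% to 26.3% in dKO and from 14.4% to 23.7% in control MEFs, and for the interaction from 0.359% to 14.3%. Each of these highest shares came without dKO EtOH replicate 3. The count under Dex was 7 without control Dex replicate 2, that in EtOH 6 without control EtOH replicate 1, and the interaction 4 without dKO EtOH replicate 3, 1 with median scaling and 1 without the 3 arrays that stood apart. Without those 3 arrays 10 genes were called for genotype under Dex and 7 in EtOH, and for Dex 7 in dKO and 9 in control MEFs. With the replicate number as a block the counts were 9 and 9 for genotype under Dex and in EtOH (16.5% and 21.3% of all genes). They were 6 and 8 for Dex in dKO and control MEFs (10.8% and 17% of all genes). For the interaction the count was 0, where 34 of all genes tested were called against 193 without the block. Deviations from the group means were weakly correlated between samples of 1 number (r of -0.18 to 0.14). With 3 arrays per group, and with the arrays that stood apart among them, such values neither show nor exclude a pairing of cultures by number. Among all genes, median scaling raised the genotype calls in EtOH to 3107 and the interaction calls to 697; without the 3 arrays, Dex called 685 in dKO MEFs against 1230, the genotypes 1414 in EtOH against 2236, and the interaction 67.

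Of 38 gene results run under 829 alternatives in all, none reversed, 740 values kept the call and 89 lost it; 21 results kept it in all of their alternatives. Besides those given with the genes, Slit3, Efnb1 in dKO, Efnb2, Robo1, Sema3a and Sema4a under Dex lost the call with the replicate block. Efna1 under Dex also lost it with eBayes trend and robust settings and in the authors' normalized values, and Slit3 when every detected probe was tested. Sema7a has 2 of the 38 results. Its call under Dex was lost without background correction and without control Dex replicate 2. Both groups were at background there, so neither a kept nor a lost call of it is read. Testing all probes without a detection filter ended the calls of Slit3, Efnb1 in dKO, Efnb2, Efna1, Sema3a and Sema4a under Dex, and fitting the compared groups alone those of Slit3, Efnb1 in dKO and Plxna2 for genotype. Genes near background were limited by signal. Their folds are bounds, for group means of corrected signals only, where a whole group was at background. The folds of Epha1, of Epha7 in dKO MEFs and of Epha3 under Dex had 1 or 2 arrays above background in the dimmer group and are not bounds.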

Other observations

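Unc5b had the widest spread between replicates of the bright guidance genes. It read 10.71, 10.37 and 9.54 in dKO Dex, 9.50, 9.84 and 10.83 in dKO EtOH, 10.45, 10.68 and 9.65 in control Dex and 10.75, 10.47 and 10.16 in control EtOH MEFs, with SDs of 0.60, 0.69, 0.54 and 0.30 (n = 3 each). Its low arrays included control Dex replicate 3 and dKO EtOH replicates 1 and 2, the arrays that stood apart on the third principal component, and also dKO Dex replicate 3, which did not. The 95% interval of its Dex change was -0.69 to 0.98 in dKO MEFs and -1.04 to 0.64 in control MEFs.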
